A study of Mus musculus with 12 samples.

Results

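Bone marrow-derived macrophages that lack Dicer and control macrophages answered lipopolysaccharide (LPS, a cell wall component of Gram-negative bacteria) in opposite directions at 104 genes. These genes were chosen on measured values. A gene was taken when LPS libraries were at least 25% above vehicle libraries in 1 genotype and at least 20% below them in the other. This was read from the LPS ratio, the mean CPM (counts scaled to library size) of the LPS libraries plus 0.5, over the mean CPM of the vehicle libraries of the same genotype plus 0.5. TMM scaling (edgeR's trimmed mean of M values) sets the libraries level at the bulk of their genes. Ciita was left out, and a gene needed 2 CPM in at least 1 group, which 12021 genes passed. The 104 genes were 0.865% of these. In 46 genes, 0.383%, the ratio was high in Dicer KO and low in control. In the other 58 genes, 0.483%, it was low in Dicer KO and high in control. The median ratio of the 46 was 1.55 in Dicer KO (1.26 to 4.64) and 0.647 in control (0.175 to 0.793). That of the 58 was 0.724 in Dicer KO (0.348 to 0.79) and 1.39 in control (1.251 to 4.12). Because both LPS ratios chose the genes, these ratios and their difference are a description here and carry no test.

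The cells came from male mice on a C57BL/6 background, all without Apoe (ApoE-/-), whose age is not given. Dicer KO mice have LysMcre/+;Dicerfl/fl;ApoE-/- in their titles. Their littermate controls have LysMcre/+;Dicer+/+;ApoE-/- in their titles, while other labels call them wildtype and the names of their files mark LysM as wt. Whether the controls carry Cre is thus not settled, and neither is the number of Cre copies in the Dicer KO mice (see Lyz2 below). The marrow cells were grown for 7 days with L929 cell supernatant and plated in serum-free medium. All received dilute ethanol overnight, then LPS at 100 ng/ul or phosphate-buffered saline (vehicle) for 6 h. There were 3 libraries in each of the 4 groups: Dicer KO LPS, Dicer KO vehicle, control LPS and control vehicle. The labels do not say that the 3 libraries came from separate mice, so p-values measure the spread between these libraries, which may be technical.

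Dicer is the nuclease that cuts precursor hairpins into mature microRNAs, short RNAs that pair through their seed with sites in messenger RNAs and lower their stability and translation. LPS binds TLR4 on macrophages and switches on NF-kappaB, interferon and metabolic programs while many resting-state genes are turned down. Sterol genes are part of that response. SREBP factors drive cholesterol and fatty acid synthesis, and the oxysterol receptor LXR drives cholesterol export through ABCA1 as well as Fasn and Scd1.

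Dicer1 itself had 15.93, 14.27 and 16.34 CPM in Dicer KO LPS libraries and 20.1, 19.72 and 19.36 CPM in Dicer KO vehicle libraries. It had 47.04, 48.55 and 52.53 CPM in control LPS libraries and 42.57, 45.3 and 43.12 CPM in control vehicle libraries. Averaged over LPS and vehicle it was lower in Dicer KO by a log2 fold change of -1.41 ± 0.047 (SE, n = 6 against 6 libraries, edgeR quasi-likelihood adjusted p = 1.03e-13). Each library held 16172600 to 18886948 counts assigned to genes. All 8 macrophage markers on the list reached 2 CPM. Erythroid markers summed to at most 0.84 CPM in any library, mast cell and basophil markers to at most 1.96 CPM, B cell markers to at most 5.06 CPM, and 4 of 8 conventional dendritic cell markers (Zbtb46, Cd209a, Flt3 and Clec9a) were under 1 CPM in every group. The remaining dendritic cell markers, Itgax among them, made that list sum to 61.84 to 62.93 CPM with LPS and 59.68 to 63.95 CPM with vehicle in Dicer KO. The sums in control were 17.25 to 20.9 CPM with LPS and 15.94 to 19.6 CPM with vehicle, and their part in the results was not tested. Other lists moved with treatment and genotype, and their part in the results was not tested either. Plasmacytoid dendritic cell markers, with Spib and Siglech under 1 CPM, summed to 1260 to 1289 and 499.2 to 599 CPM in Dicer KO with LPS and vehicle, and to 762.3 to 791 and 228.4 to 236.3 CPM in control. Endothelial markers, with Tek and Emcn under 1 CPM, summed to 227.9 to 266.9 and 41.91 to 60.33 CPM in Dicer KO, and to 108 to 130.5 and 7.41 to 9.36 CPM in control. T and NK cell markers, with 6 of 8 under 1 CPM, summed to 37.44 to 40.78 and 7.93 to 8.94 CPM in Dicer KO, and to 16.12 to 19.92 and 10.04 to 11 CPM in control. Stromal markers, with 6 of 7 under 1 CPM, summed to 33.89 to 36.72 CPM in Dicer KO and 22.8 to 25 CPM in control with LPS, and to at most 1.26 CPM with vehicle. Neutrophil markers, with Elane, Ly6g, Retnlg and Cxcr2 under 1 CPM, summed to 94.33 to 179.8 CPM over all libraries and megakaryocyte markers to 56.53 to 96.33 CPM. With LPS in Dicer KO, few genes made up most of several sums. Their group means there were 965.7 CPM for Bst2 and 302.3 CPM for Tcf4 (plasmacytoid dendritic cell) and 227.6 CPM for Kdr (endothelial). For Lck (T and NK cell), Pdgfrb (stromal) and Pf4 (megakaryocyte) they were 35.54, 34.48 and 86.69 CPM. Among all marker lists, the only members were the macrophage genes Mertk and Lyz2.

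A pair of libraries stood apart from their group. Dicer KO vehicle replicate 2 differed from its 2 partners with chi-square values of 11.89 and 8.4 per degree of freedom, against 2.3 between those partners. Control vehicle replicate 3 gave 14.12 and 9.84, against 2.53 between its partners. Both were extreme in their group at most of the 104 genes, as any library in a group of 3 tends to be. The same counts over all genes were not made, so nothing particular to the 104 is read from them. Dicer KO vehicle replicate 2 was the lowest of its group at 28 of the 46 genes and the highest at 35 of the 58. Control vehicle replicate 3 was the lowest at 32 of the 46 and the highest at 34 of the 58. A low vehicle library raises an LPS ratio and a high one lowers it. At the genes so counted, Dicer KO vehicle replicate 2 thus moved the ratio toward the rule, and control vehicle replicate 3 away from it. Without both libraries, 38 of the 46 and 42 of the 58 still met the rule, and 46 of 46 and 57 of 58 still had LPS ratios on opposite sides of 1. The remaining libraries had also chosen the genes, so the last 2 counts were nearly assured.

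The scaling decides how many of these genes count as opposite. The factors by which TMM corrects library size lay at 0.707 to 0.713 for Dicer KO LPS libraries and 1.19 to 1.2 for Dicer KO vehicle libraries. For control they lay at 0.891 to 0.921 with LPS and 1.29 to 1.31 with vehicle. With CPM on library totals, the median log2 LPS ratio of all genes moved by -0.71 in Dicer KO and by -0.5 in control. On that scale 20 of the 46 genes and 28 of the 58 still had ratios on opposite sides of 1, and 8 of each direction still met the rule. The other 26 and 30 genes were then lower with LPS in both genotypes. The ratio remained larger in Dicer KO than in control at 46 of 46 genes and smaller at 58 of 58. That was fixed in advance, since the limits of the rule lie further apart than the genotypes moved against each other. "Higher" and "lower" with LPS below are therefore relative to the bulk of genes, and for the genes described one by one the text says where the direction depends on this. The 8 genes of the first direction that met the rule on both scales were Kmo, Sgk1, Med12l, Olfml3, Klf4, Lrp4, Rnf180 and Zc3hav1l. In the second direction they included Fasn, Fads2, Gdf15, Pgp, Fam126b and Gm9887. Gm9887 had group means of at most 3.47 CPM and overlapping groups in Dicer KO. Without Dicer KO vehicle replicate 2 its ratio in Dicer KO was 1.008, and it no longer met the rule.

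**Figure D1:**
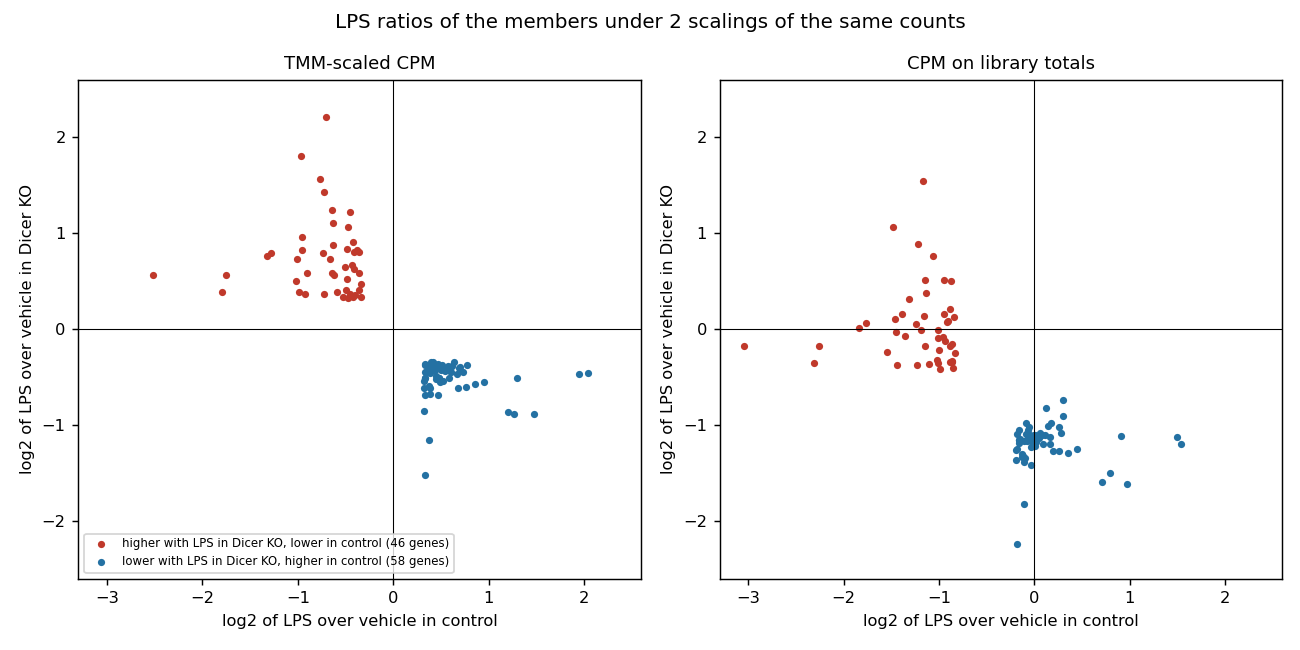
Log2 LPS ratio in Dicer KO macrophages (y axis) against that in control macrophages (x axis) for the 46 genes higher with LPS in Dicer KO (red) and the 58 lower (blue), with TMM-scaled CPM on the left and CPM on library totals on the right. On library totals the points move down and left, and 20 red and 28 blue genes stay on opposite sides of 0.

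Across the 12021 genes the 2 genotypes mostly answered alike. LPS was at least 25% above vehicle in both genotypes at 3643 genes and at least 20% below in both at 3912. The median ratio was 0.957 in Dicer KO and 0.984 in control. The LPS libraries did not overlap the vehicle libraries at 85.5% of these genes in Dicer KO, at 83.3% in control and at 75.1% in both. Of the 46 genes, 42 had no overlap in Dicer KO, 39 in control and 35 in both. Of the 58 genes, 46 had no overlap in Dicer KO, 50 in control and 41 in both. These shares lie near the background or follow from the rule, and nothing is read from them. LPS libraries all above vehicle in Dicer KO and all below in control were found at 0.99% of all genes, and the reverse at 1.42%.

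**Figure D2:**
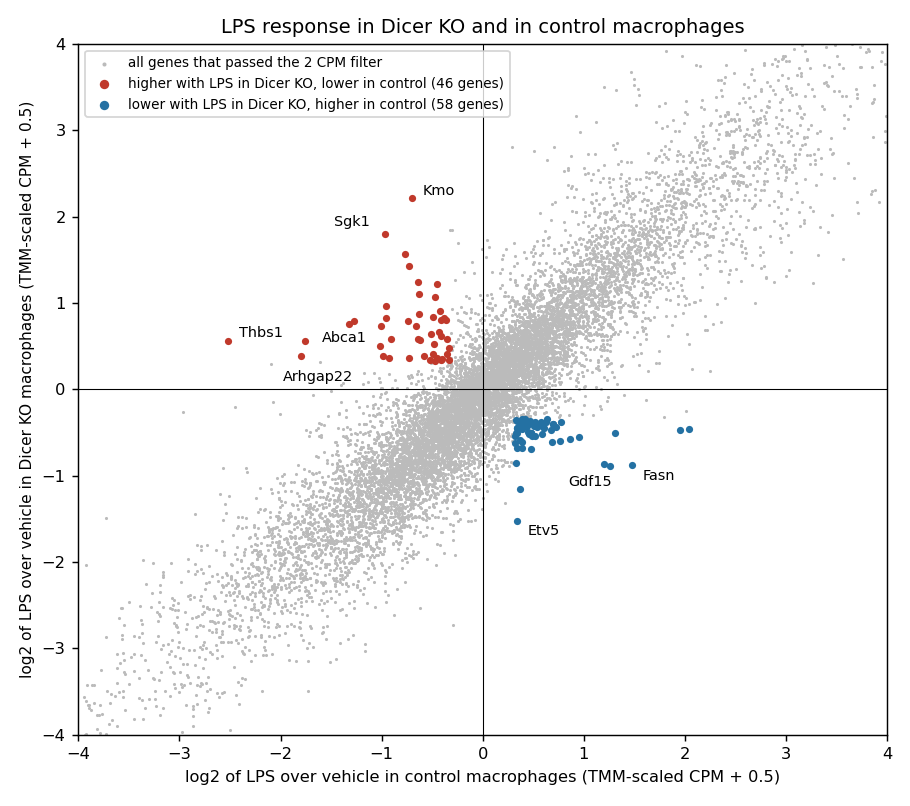
Log2 LPS ratio in Dicer KO macrophages (y axis) against that in control macrophages (x axis), each point 1 gene, from TMM-scaled CPM plus 0.5; grey points are the genes that passed the 2 CPM filter. The 46 red genes sit in the upper left and the 58 blue genes in the lower right, with Thbs1, Kmo and Sgk1 and with Fasn and Etv5 among those farthest out; values beyond 4 on either axis are not drawn.

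At the limits of the rule, genes inside and outside were close in the ratio that decided membership. Tmem87a, a Golgi membrane protein gene, and Trio, a guanine nucleotide exchange factor, were just inside with ratios of 1.26 and 1.26 in Dicer KO and 0.719 and 0.793 in control. Slc6a19 (3.6 in Dicer KO, 0.801 in control) and Creb3l4 (1.57 and 0.801) were just outside. In the other direction Mfsd13a (0.689 in Dicer KO, 1.251 in control) and the RNA helicase gene Ddx21 (0.652 and 1.251) were just inside. Wfs1 (0.706 and 1.248) and the sterol carrier gene Stard4 (0.803 and 3.47) were just outside. On library totals Tmem87a, Trio, Mfsd13a and Ddx21 were lower with LPS in both genotypes.

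The choice of libraries was checked by naming genes without 1 replicate number of all 4 groups and reading the 4 libraries left out. Without replicate 1, the rule named 51 genes as higher with LPS in Dicer KO and lower in control, and 41 of these (80.4%) had ratios on opposite sides of 1 in the left-out libraries. The same held for 39 of 43 genes (90.7%) without replicate 2 and 48 of 59 (81.4%) without replicate 3. In the other direction it held for 61 of 87 (70.1%), 46 of 54 (85.2%) and 56 of 75 genes (74.7%). Among all genes, 5.72% to 8.41% had ratios opposite in the given direction in those libraries. Fewer met the rule itself in the left-out libraries: 64.7%, 67.4% and 39% of the genes of the first direction without replicates 1, 2 and 3 in turn. In the second direction these shares were 32.2%, 50% and 32%, against 0.408% to 0.965% of all genes over both directions. When each of the 12 libraries was left out in turn, 28 of the 46 and 22 of the 58 met the rule every time, while 46 of 46 and 57 of 58 kept ratios on opposite sides of 1 every time. The last counts reuse libraries that chose the genes, so they were nearly assured. The left-out shares show agreement between libraries, which may be technical repeats.

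Among the genes higher with LPS in Dicer KO and lower in control, the glucocorticoid- and serum-regulated kinase gene Sgk1 (ENSMUSG00000019970, chr10:21882184-21999903, plus strand, GRCm38) met the rule in every one of the leave-outs and on library totals. Sgk1 had 105, 126.6 and 124.8 CPM in Dicer KO LPS libraries, against 36.34, 30.48 and 34.25 CPM in Dicer KO vehicle libraries. It had 26.14, 23.19 and 22.39 CPM in control LPS libraries, against 49.49, 46.32 and 45.92 CPM in control vehicle libraries. The LPS libraries lay above all vehicle libraries in Dicer KO and below all of them in control, and the vehicle libraries of Dicer KO lay below those of control. The LPS ratio was 3.49 in Dicer KO and 0.511 in control. Averaged over both treatments, Sgk1 was higher in Dicer KO by a log2 fold change of 0.91 ± 0.058 (SE, edgeR adjusted p = 3.16e-10).

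Kmo, which encodes kynurenine 3-monooxygenase of the tryptophan breakdown pathway, had the highest LPS ratio of the 46 in Dicer KO, at 4.64, against 0.616 in control. It had 9.99, 11.57 and 10.92 CPM in Dicer KO LPS libraries and 2.7, 0.927 and 2.19 CPM in Dicer KO vehicle libraries. Control LPS libraries had 3.08, 2.36 and 3.23 CPM and control vehicle libraries 5.38, 5.99 and 3.64 CPM. The groups did not overlap within either genotype. Its genotype difference averaged over treatments was not called (log2 0.28 ± 0.187, edgeR adjusted p = 0.215), but it was without Dicer KO vehicle replicate 2 (0.44, adjusted p = 0.0111). Med12l, a paralogue of a Mediator subunit gene, had 8.19, 8.49 and 10.09 CPM in Dicer KO LPS, against 2.89, 2.27 and 2.89 in Dicer KO vehicle libraries. Control LPS libraries held 2.23, 2.06 and 2.17 CPM, against 4.61, 3.99 and 3.43 CPM in control vehicle libraries. P2ry12, P2ry13 and P2ry14 lie within its span on the other strand and did not follow it. Their ratios were 0.829, 2.59 and 2.19 in Dicer KO and 0.702, 2.7 and 1.92 in control.

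The transcription factor gene Klf4, a regulator of macrophage polarization, had 29, 24.93 and 21.54 CPM in Dicer KO LPS libraries, against 10.52, 9.89 and 10.73 CPM in Dicer KO vehicle libraries. The control values were 10.87, 11.56 and 10.67 CPM with LPS, against 18.29, 17.97 and 16.21 CPM with vehicle. Dicer KO cells thus held less Klf4 than control with vehicle and more with LPS, with no overlap of libraries in either treatment. Its averaged difference was small (log2 0.22 ± 0.07, edgeR adjusted p = 0.0124) and changed sign on library totals (-0.02, adjusted p = 0.804). Of the 42 tested macrophage transcription factors on the list, 15 were higher and 18 lower in Dicer KO by that test, and Klf4 was the only one among the 104 genes.

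Both genes for the secreted growth factor chains PDGF-A and PDGF-B, ligands of platelet-derived growth factor receptors on mesenchymal cells, were in this direction. Pdgfb had 74.77, 92.07 and 92.57 CPM in Dicer KO LPS libraries, against 45.79, 54.43 and 52.45 CPM in Dicer KO vehicle libraries. In control it had 20.31, 24.7 and 21.21 CPM with LPS, against 56.82, 56.95 and 54.57 CPM with vehicle. Dicer KO libraries lay just below control libraries with vehicle, at 54.43 CPM at most against at least 54.57 CPM, and far above them with LPS. Pdgfa had 22.32, 30.27 and 28.55 CPM in Dicer KO LPS and 13.5, 17.51 and 15.12 CPM in Dicer KO vehicle libraries. Control LPS libraries held 3.73, 5.75 and 4.34 CPM, against 10.68, 11.37 and 13.62 CPM in control vehicle libraries. Averaged over treatments both were higher in Dicer KO, Pdgfb by 0.91 ± 0.063 and Pdgfa by 1.46 ± 0.109 on the log2 scale (edgeR adjusted p = 2e-09 and 1.31e-08). On library totals their LPS ratios in Dicer KO were 1.01 and 1.04, so an increase there rests on the TMM scale.

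Abca1, the cholesterol exporter and a textbook LXR target, had 584.5, 550.9 and 548.3 CPM in Dicer KO LPS libraries, against 435.8, 333.1 and 416.9 CPM in Dicer KO vehicle libraries. The control values were 180.9, 196 and 179 CPM with LPS, against 390.2, 439.6 and 299.5 CPM with vehicle. Vehicle libraries of the genotypes overlapped, while every Dicer KO LPS library held more than every control LPS library. Abca1 was higher in Dicer KO by 0.83 ± 0.092 on the log2 scale (edgeR adjusted p = 8.82e-06). On library totals its LPS ratio was 0.846 in Dicer KO and 0.343 in control, below 1 in both. The LXR targets Abcg1, a second cholesterol exporter, and Mylip, which marks the LDL receptor for degradation, were lower with LPS in both genotypes. Their ratios were 0.867 and 0.748 in Dicer KO, against 0.427 and 0.467 in control. Both were also higher in Dicer KO on average, by 1.15 ± 0.042 and 0.72 ± 0.054 (edgeR adjusted p = 2.8e-13 and 2.75e-09).

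Mertk, the receptor tyrosine kinase with which macrophages take up apoptotic cells, had 131.9, 118.7 and 117.3 CPM in Dicer KO LPS libraries, against 88.79, 76.83 and 81.8 CPM in Dicer KO vehicle libraries. In control it had 57.65, 46.19 and 54.64 CPM with LPS, against 82.27, 84.94 and 77.84 CPM with vehicle. The vehicle libraries overlapped between genotypes and the LPS libraries did not. It was higher in Dicer KO by 0.62 ± 0.053 (log2, edgeR adjusted p = 2.02e-08), and its ratio on library totals was 0.886 in Dicer KO and 0.452 in control. Of the 44 tested phagocytic, scavenger and lectin receptor genes, the test called 23 higher and 13 lower, and Mertk alone had the opposite LPS ratios. In bulk RNA, fewer cells of a kind and less RNA per cell cannot be told apart.

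Arhgap22, a GTPase-activating protein for Rac, had 42.83, 42.36 and 50.47 CPM in Dicer KO LPS libraries, against 32.06, 36.51 and 34.48 CPM in Dicer KO vehicle libraries. Control LPS libraries held 10.29, 12.59 and 12.09 CPM, against 38.73, 37.52 and 49.18 CPM in control vehicle libraries. Its control LPS libraries lay below all others, and it no longer met the rule without Dicer KO LPS replicate 3. Arhgap22 was higher in Dicer KO on average by 0.83 ± 0.078 (log2, edgeR adjusted p = 1.74e-07), and on library totals its LPS ratio was below 1 in both genotypes. The antisense gene Gm15512 overlaps 36.9% of its exons and had ratios of 1.48 in Dicer KO and 0.296 in control, close to the 1.31 and 0.287 of Arhgap22, and on library totals both were below 1. The strand setting of the counting is not given here, so the share of each gene in these counts is uncertain.

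Thbs1 encodes thrombospondin 1, a matrix glycoprotein that activates TGF-beta, and had the lowest LPS ratio of the 46 in control, at 0.175, against 1.48 in Dicer KO. It had 148.9, 136 and 125.3 CPM in Dicer KO LPS libraries and 140.3, 29.04 and 107.3 CPM in Dicer KO vehicle libraries. The control values were 80.97, 79 and 78.14 CPM with LPS, against 623.9, 598.1 and 149 CPM with vehicle. The Dicer KO groups overlapped, and the low vehicle values were the libraries that stood apart. Without Dicer KO vehicle replicate 2 the ratio in Dicer KO was 1.1, and the gene no longer met the rule. The averaged difference, -0.76 ± 0.441 (log2, edgeR adjusted p = 0.174), was called lower without both of those libraries (-0.76, adjusted p = 1.22e-06) and without control vehicle replicate 3 alone (-0.97, adjusted p = 0.0398). On library totals its LPS ratio was 0.886 in Dicer KO and 0.121 in control. Thbs1 was also the only member on the list of 27 tested let-7 targets, of which 16 were higher and 3 lower in Dicer KO. Cd44, the hyaluronan receptor, was the other gene of this direction on the list of matrix, protease and adhesion genes. Cd44 had 360.5, 439.5 and 400.6 CPM in Dicer KO LPS and 312.3, 305.1 and 300.6 CPM in Dicer KO vehicle libraries. It had 280.1, 285.4 and 270.5 CPM in control LPS and 439.4, 430.6 and 383.6 CPM in control vehicle libraries. On library totals its LPS ratio was 0.779 in Dicer KO and 0.465 in control, and it no longer met the rule without Dicer KO LPS replicate 2. Its averaged difference was not called (log2 0.04 ± 0.047, edgeR adjusted p = 0.528), although it was called lower on library totals (-0.2, adjusted p = 0.000971).

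**Figure D3:**
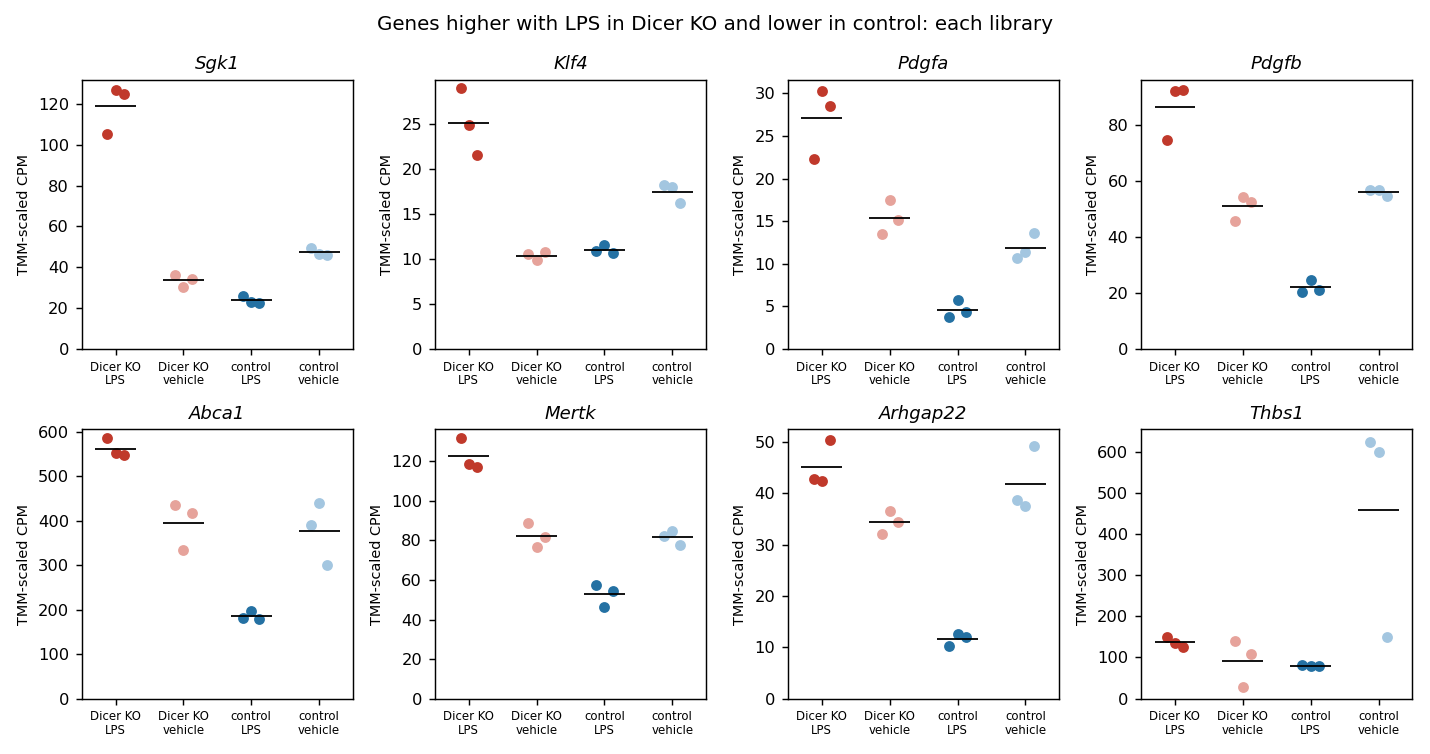
TMM-scaled CPM (y axis, from 0) of 8 genes higher with LPS in Dicer KO and lower in control, each point 1 library and each bar the mean of 3; groups from left to right are Dicer KO LPS, Dicer KO vehicle, control LPS and control vehicle. Dicer KO LPS is the highest group for all shown but Thbs1, whose control vehicle libraries reach 623.9 CPM with 1 library at 149.

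The remaining named genes of this direction ranged widely in level. Olfml3, an extracellular matrix protein gene, had 5.94, 7.89 and 8.21 CPM in Dicer KO LPS and 2.61, 2.01 and 2.61 CPM in Dicer KO vehicle libraries. It had 0.197, 0.424 and 0.744 CPM in control LPS and 1.42, 0.733 and 1.09 CPM in control vehicle libraries, where the groups overlapped. Its averaged difference had the highest value of the 46 (log2 2.57 ± 0.202, edgeR adjusted p = 3.81e-09). Lrp4, a receptor of the LDL receptor family, had 38.17, 33.57 and 32.77 CPM in Dicer KO LPS and 17.31, 14.26 and 16.05 CPM in Dicer KO vehicle libraries. It had 9.76, 9.02 and 9.74 CPM in control LPS and 14.85, 15.44 and 14.71 CPM in control vehicle libraries, with no overlap within either genotype. Inpp1, an inositol polyphosphate phosphatase, Fbxw7, the substrate receptor of a ubiquitin ligase, and the anchoring proteins Akap13 and Akap7 were higher in Dicer KO on average by log2 values of 1.248, 0.82, 0.59 and 0.53. On library totals, Inpp1, Fbxw7, Capn11 and Zfp583 were lower with LPS in both genotypes. Atp2b4, a calcium pump of the plasma membrane, was not called (-0.22, edgeR adjusted p = 0.135), but it was called lower without control vehicle replicate 3 (-0.31, adjusted p = 0.0182). Zfp583, a zinc finger gene, and Capn11, a calpain protease gene, were lower in Dicer KO by -0.6 and -2.1, from levels of at most 4.65 CPM in any library.

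Lyz2, the lysozyme gene into which the LysM-Cre cassette is inserted, also met the rule. It had 16.16, 20.58 and 19.89 CPM in Dicer KO LPS and 15.64, 12.67 and 13.95 CPM in Dicer KO vehicle libraries. It had 4281, 3891 and 4008 CPM in control LPS and 6041, 5730 and 5370 CPM in control vehicle libraries. Averaged over treatments it was 295-fold lower in Dicer KO (log2 -8.21 ± 0.076, edgeR adjusted p = 1.87e-22). The titles give LysMcre/+ to both genotypes, yet Lyz2 differed this much between them. Cre copies may thus differ between the genotypes along with Dicer, and how many each carries was not tested. Its LPS ratio was 1.33 in Dicer KO and 0.711 in control, and on library totals both were below 1.

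Some members of this direction share reads or lie in repeated DNA. The long noncoding Gm42418 and the ribosomal RNA gene CT010467.1 overlap each other on chromosome 17 and had ratios of 1.59 and 1.54 in Dicer KO and 0.743 and 0.752 in control, below 1 in both genotypes on library totals. Gm26778 is wholly overlapped by Kctd12 on the opposite strand and moved with it, at 1.78 against 1.67 in Dicer KO and 0.766 against 0.631 in control. On library totals the ratios of Kctd12 were 0.996 in Dicer KO and 0.44 in control, and those of Gm26778 were 1.06 and 0.534. Igsf10 and Med12l overlap by 1948 bases. Of the members, 38 of the 46 and 50 of the 58 were protein-coding with less than 50% of their exons overlapped on the other strand. This limit does not leave out every gene of this kind: Igsf10, Med12l and Arhgap22, at 19.8%, 17.3% and 36.9%, stay among the 38.

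Among the genes lower with LPS in Dicer KO and higher in control, lipid synthesis genes gave some of the widest splits. Of the 26 genes on the list of cholesterol synthesis and uptake, 14 were at least 25% above vehicle in both. The ratio was smaller in Dicer KO at 25 of the 26, with a median of 1.48 in Dicer KO and 4.12 in control. Over all genes it was smaller in Dicer KO at 52.9%. Squalene epoxidase (Sqle) had 0.843 in Dicer KO and 4.03 in control, lanosterol synthase (Lss) 1.18 and 4.2, and mevalonate kinase (Mvk) 1.04 and 2.51. In the averaged genotype test 1 of the 26 was higher and 9 were lower in Dicer KO.

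Fasn, the fatty acid synthase gene, had 12.62, 16.6 and 15.89 CPM in Dicer KO LPS libraries, against 23.41, 34.71 and 26.22 CPM in Dicer KO vehicle libraries. Control LPS libraries held 59.48, 66.96 and 62.7 CPM, against 15.98, 20.49 and 30.46 CPM in control vehicle libraries. No LPS library overlapped a vehicle library within either genotype, and the vehicle libraries overlapped between genotypes. Fasn had ratios of 0.543 in Dicer KO and 2.79 in control. It was lower in Dicer KO on average by -0.87 ± 0.167 (log2, edgeR adjusted p = 0.00136).

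Fads2, the delta-6 desaturase of polyunsaturated fatty acid synthesis, had 1.95, 2.4 and 1.96 CPM in Dicer KO LPS libraries, against 3.26, 6.18 and 3.5 CPM in Dicer KO vehicle libraries. The control values were 9.24, 8.84 and 7.63 CPM with LPS, against 2.51, 2.49 and 4.85 CPM with vehicle. The pattern of Fasn was repeated at lower levels, with the same high vehicle library in each genotype. Fads2 was lower in Dicer KO by -0.82 ± 0.209 (log2, edgeR adjusted p = 0.00399). Scd1, stearoyl-CoA desaturase, was near the limit of detection used. It had 0.902, 1.05 and 1.13 CPM in Dicer KO LPS and 2, 2.78 and 2.01 CPM in Dicer KO vehicle libraries. It had 2.49, 2.18 and 3.1 CPM in control LPS and 1.94, 2.12 and 1.84 CPM in control vehicle libraries. Its ratio in control was 1.253, and it left the set without control LPS replicate 3, control vehicle replicate 1 or control vehicle replicate 3.

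The list of LXR targets, cholesterol efflux and fatty acid synthesis genes holds Abca1, Fasn, Fads2 and Scd1, in opposite directions. The averaged test called 9 of its 26 genes higher and 13 lower, with a median log2 of -0.13, against -0.02 over all genes tested. Acaca, the acetyl-CoA carboxylase gene ahead of Fasn, had ratios of 0.882 in Dicer KO and 1.99 in control. Srebf1, the SREBP-1 gene, had 0.926 and 1.65, and Scd2 had 0.151 and 0.814.

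The promoter windows of Abca1 and Fasn hold the same stretch of letters. The windows run from 250 bases before to 50 after the RefSeq transcript start, both on the minus strand of GRCm38.p6. They are shown because these genes, which lie on different chromosomes, moved in opposite directions. Capitals mark a reverse-strand match to GGTNA, 5 free bases and GGTCA, a direct repeat of the kind that LXR binds; both strands were searched.
Abca1, chr4:53159846-53160145: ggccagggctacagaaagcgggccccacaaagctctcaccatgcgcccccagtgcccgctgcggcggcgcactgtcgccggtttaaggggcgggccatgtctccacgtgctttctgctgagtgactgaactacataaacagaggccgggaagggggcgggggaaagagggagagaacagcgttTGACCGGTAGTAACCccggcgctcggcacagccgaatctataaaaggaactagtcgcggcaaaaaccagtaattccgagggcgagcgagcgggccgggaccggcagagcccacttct
Fasn, chr11:120824498-120824797: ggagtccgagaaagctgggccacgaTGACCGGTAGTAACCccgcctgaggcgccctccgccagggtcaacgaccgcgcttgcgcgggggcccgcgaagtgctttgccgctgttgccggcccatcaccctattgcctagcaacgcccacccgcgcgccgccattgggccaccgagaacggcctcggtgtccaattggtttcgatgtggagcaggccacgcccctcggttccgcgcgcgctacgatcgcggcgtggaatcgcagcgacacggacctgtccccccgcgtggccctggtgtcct
The match begins at position -67 from the start in Abca1 and -225 in Fasn, and its 15 letters, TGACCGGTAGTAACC, are identical. The motif was chosen after the data had been seen. It was found in 1 of 37 windows of the first direction, 1 of 33 of the second and 12 of 9063 windows of all genes (0.132%). It does not overlap the TATAAA of the Abca1 window, which begins at -29.

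**Figure D4:**
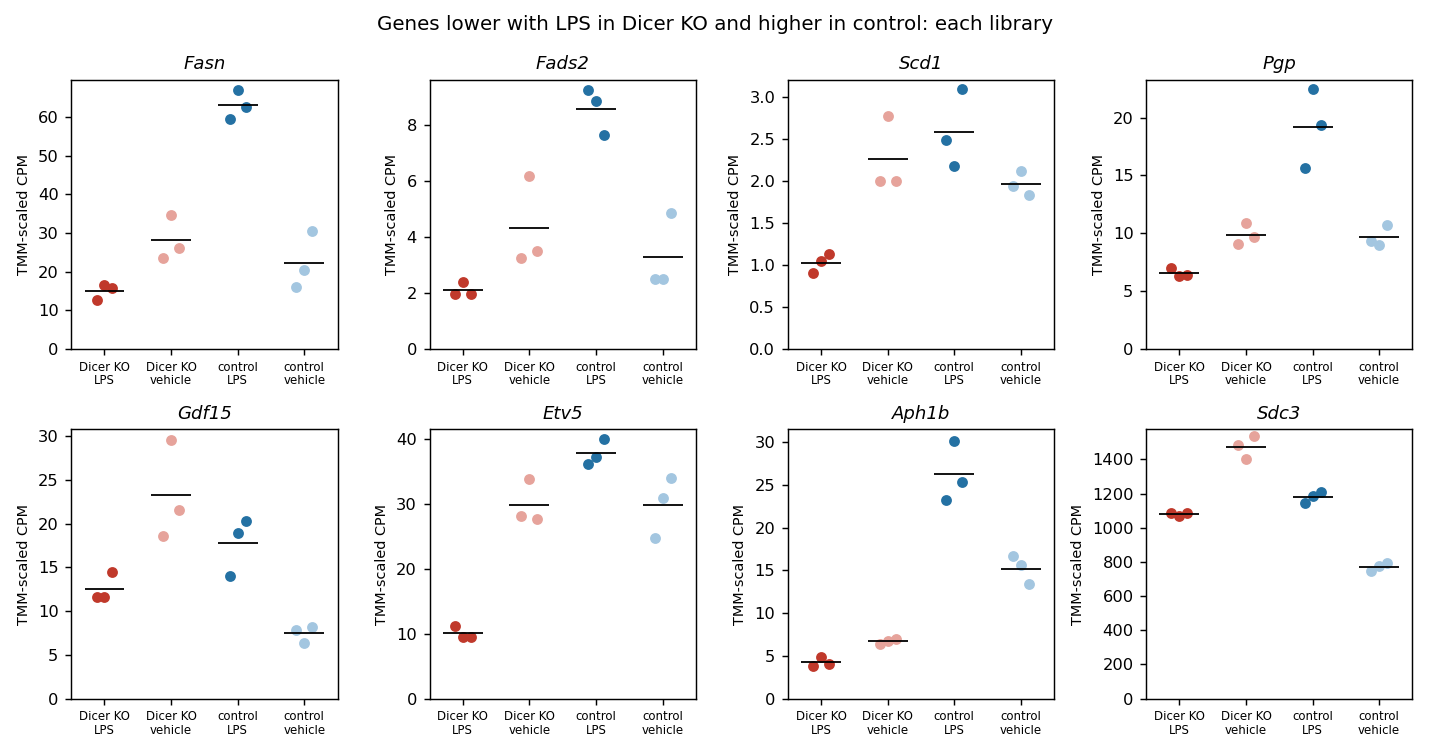
TMM-scaled CPM (y axis, from 0) of 8 genes lower with LPS in Dicer KO and higher in control, each point 1 library and each bar the mean of 3; groups from left to right are Dicer KO LPS, Dicer KO vehicle, control LPS and control vehicle. Control LPS is the highest group for Fasn, Fads2, Scd1, Etv5, Aph1b and Pgp, and Dicer KO vehicle for Gdf15 and Sdc3.

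Gdf15, a stress-induced hormone of the TGF-beta family, had 11.65, 11.57 and 14.46 CPM in Dicer KO LPS libraries, against 18.61, 29.61 and 21.56 CPM in Dicer KO vehicle libraries. In control it had 14.02, 18.95 and 20.28 CPM with LPS, against 7.81, 6.36 and 8.19 CPM with vehicle. Dicer KO vehicle libraries lay above control vehicle libraries, and LPS libraries overlapped. Unlike most of the 58, Gdf15 was higher in Dicer KO on average (log2 0.57 ± 0.137, edgeR adjusted p = 0.00337), a call lost on library totals (0.33, adjusted p = 0.0535). Aen, an exonuclease gene induced by p53, had the same order of group means. It had 15.4, 16.45 and 14.54 CPM in Dicer KO LPS and 21.78, 22.24 and 20.62 CPM in Dicer KO vehicle libraries. It had 19.06, 17.01 and 17.74 CPM in control LPS and 10.4, 10.14 and 12.7 CPM in control vehicle libraries. Aen was higher in Dicer KO by 0.37 ± 0.064 (log2, edgeR adjusted p = 6.4e-05), a call also lost on library totals (0.13, adjusted p = 0.0672). Of 23 tested p53 targets, 17 were higher and 1 lower in Dicer KO, and Aen was the only one in the set.

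Sdc3, the heparan sulfate proteoglycan syndecan 3, had 1088, 1071 and 1088 CPM in Dicer KO LPS libraries, against 1484, 1402 and 1536 CPM in Dicer KO vehicle libraries. Control LPS libraries held 1144, 1184 and 1207 CPM, against 747.7, 777.2 and 794.3 CPM in control vehicle libraries. Dicer KO vehicle libraries were the highest and control vehicle libraries the lowest, with the LPS groups close to each other. It was higher in Dicer KO by 0.4 ± 0.038 (log2, edgeR adjusted p = 4.2e-08). Gm26716 lies wholly within 1920 bases on its other strand and had ratios of 0.74 in Dicer KO and 1.45 in control, against 0.734 and 1.52 for Sdc3. On library totals the ratios in control were 1.01 for Gm26716 and 1.06 for Sdc3, so an increase there rests on the TMM scale.

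Etv5, an ETS transcription factor downstream of growth factor signalling, had the lowest ratio in Dicer KO, at 0.348, against 1.26 in control. It had 11.2, 9.46 and 9.49 CPM in Dicer KO LPS libraries, against 28.06, 33.78 and 27.67 CPM in Dicer KO vehicle libraries. The control values were 36.16, 37.23 and 39.94 CPM with LPS, against 24.77, 30.84 and 33.93 CPM with vehicle. The vehicle groups overlapped and Dicer KO LPS stood below all. Etv5 was lower in Dicer KO by -0.96 ± 0.082 (log2, edgeR adjusted p = 4.59e-08). On library totals its ratio in control was 0.884. Without control LPS replicate 3 or control vehicle replicate 1 it no longer met the rule.

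Aph1b, a subunit of the gamma-secretase complex, had 3.83, 4.88 and 4.07 CPM in Dicer KO LPS libraries, against 6.38, 6.75 and 7 CPM in Dicer KO vehicle libraries. In control it had 23.19, 30.15 and 25.37 CPM with LPS, against 16.63, 15.6 and 13.37 CPM with vehicle. Dicer KO libraries were below control libraries in both treatments, and the gap was wider with LPS. Its averaged difference had the smallest adjusted p of the 58 (log2 -1.9 ± 0.088, edgeR adjusted p = 3.88e-12). Pgp, a phosphoglycolate phosphatase, had 6.99, 6.31 and 6.4 CPM in Dicer KO LPS and 9.03, 10.92 and 9.66 CPM in Dicer KO vehicle libraries. It had 15.66, 22.46 and 19.35 CPM in control LPS and 9.35, 8.96 and 10.74 CPM in control vehicle libraries. The vehicle groups overlapped and the LPS groups did not. Fam126b, a part of the complex that holds a phosphatidylinositol 4-kinase at the plasma membrane, had 12.4, 12.92 and 11.9 CPM in Dicer KO LPS and 19.03, 20.75 and 16.33 CPM in Dicer KO vehicle libraries. It had 29.68, 33.18 and 31.75 CPM in control LPS and 17.64, 18.45 and 15.29 CPM in control vehicle libraries, the same order as Pgp. Pgp was lower in Dicer KO by -0.76 and Fam126b by -0.61 (log2, edgeR adjusted p = 9.67e-07 and 2.92e-07).

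Galk1 (galactokinase), Wipi1 (an autophagosome protein), Pstpip1 (an actin-binding adaptor mutated in autoinflammatory disease), Zadh2 (prostaglandin reductase 3), Fam210a (a mitochondrial protein) and Celsr3 (a seven-pass cadherin) were each lower in Dicer KO on average. Their log2 values ran from -0.89 for Celsr3 to -0.68 for Fam210a. Slc35c1 (the GDP-fucose transporter of the Golgi), Hnrnpa0 (an RNA-binding protein) and Fam57a were lower by -0.37, -0.28 and -0.36. On library totals, all but Celsr3 of these 9 were lower with LPS in both genotypes, as were Lmtk2, Ddx21 and Scd1. Fam57a lost its call when any of 6 libraries was left out singly. Lmtk2, a membrane kinase, was higher by 0.85 (edgeR adjusted p = 5.32e-06), and its groups overlapped within both genotypes. Ddx21 was not called (0.14, edgeR adjusted p = 0.272), turned to -0.1 on library totals, and was called higher without control vehicle replicate 3 (0.23, adjusted p = 0.00234).

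With equal spread in all groups, the genotype difference averaged over LPS and vehicle has a sampling error uncorrelated with the contrasts of the rule. By edgeR's quasi-likelihood test at an adjusted p under 0.05, it called 59.4% of 13837 genes, 30.5% higher and 28.9% lower in Dicer KO. Of the 46 genes higher with LPS in Dicer KO, 34 were higher, 3 were lower (Lyz2, Capn11 and Zfp583) and 9 were not called. Of the 58 genes lower with LPS in Dicer KO, 6 were higher (Sdc3, Gm26716, Aen, Gdf15, Lmtk2 and Qpctl), 38 were lower and 14 were not called. The median log2 difference was 0.51 for the 46, -0.47 for the 58 and -0.02 for all genes. A gene whose genotypes lie close in 1 treatment and apart in the other can meet the rule, and it also differs in this average. The rule itself favours neither treatment. These counts therefore describe the sets and give no independent support for opposite responses. All 104 passed the filter of the test, and 8 of the 46 and 9 of the 58 stayed under 5 CPM in every group.

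Where in the design the genotypes parted is given by the group means. In the first direction the fitted log2 difference between Dicer KO and control had a median of 1.24 with LPS and -0.28 with vehicle, and was larger in size with LPS at 41 of the 46 genes. In the second direction the medians were -1.06 with LPS and 0.12 with vehicle, and it was larger with LPS at 46 of the 58. The order of the genotypes turned between treatments at 27 of the 46 and 37 of the 58, against 30.3% of all genes. Dicer KO was the higher genotype in both treatments at 16 of the 46 and 1 of the 58, and the lower at 3 and 20, against 36.1% and 33.6% of all genes. These values share the interaction with the rule and were not tested.

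**Figure D5:**
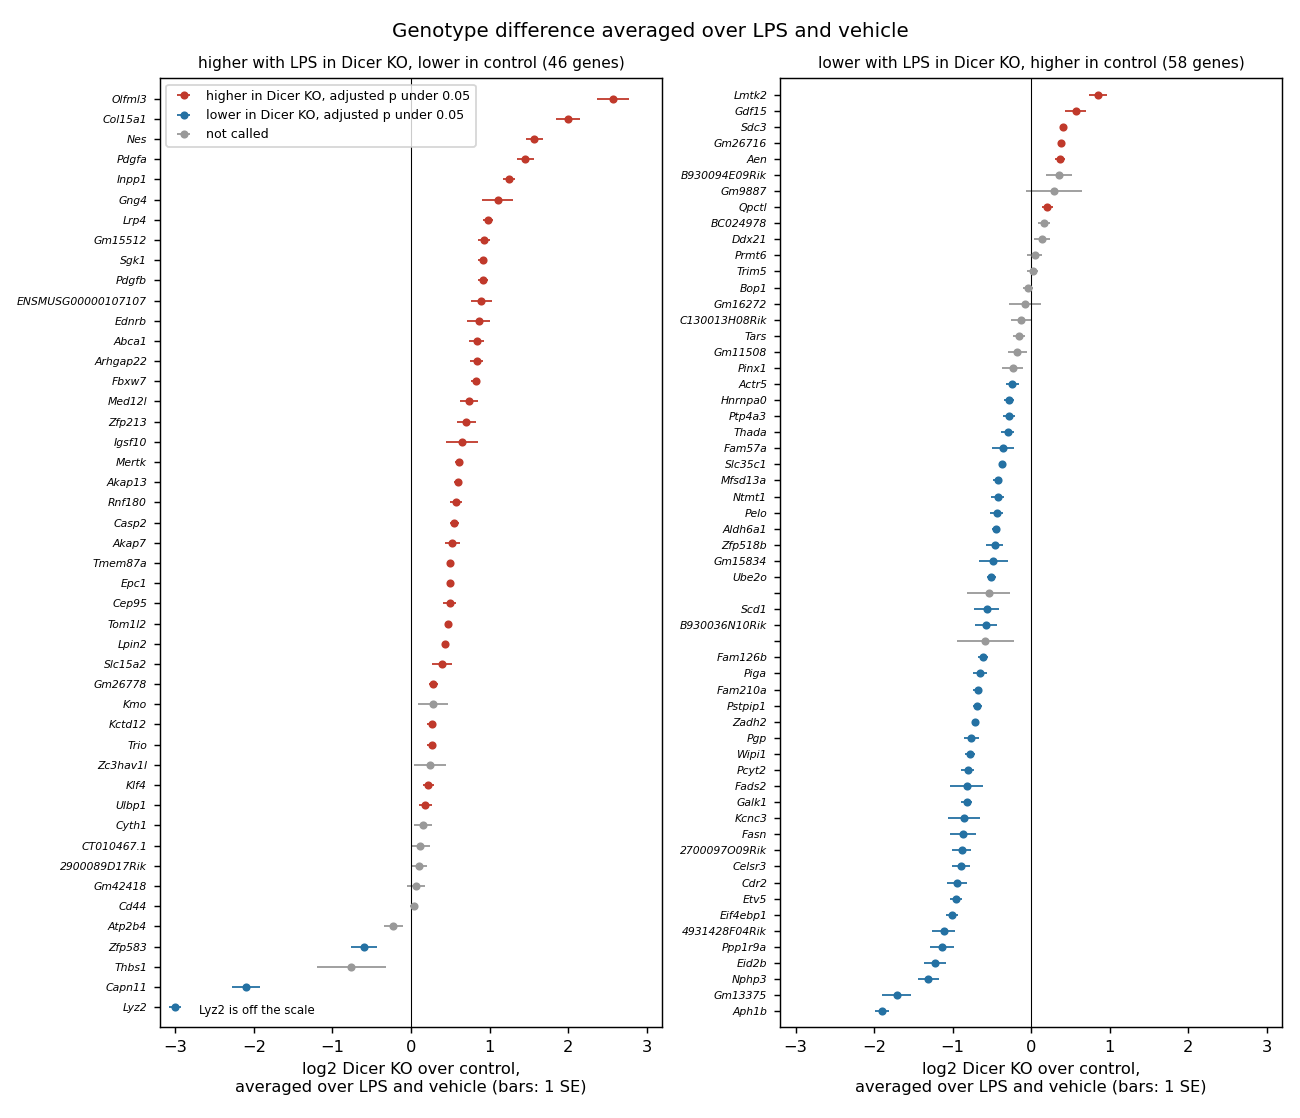
Log2 difference between Dicer KO and control averaged over LPS and vehicle (x axis; bars are 1 SE from edgeR) for the 46 genes higher with LPS in Dicer KO (left) and the 58 lower (right), coloured red where higher and blue where lower in Dicer KO at an adjusted p under 0.05. Most of the left panel, 34 genes, is red and most of the right panel, 38 genes, is blue; Lyz2, at -8.21, is drawn at the edge, and 2 rows of the right panel carry no name.

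The other gene lists held few or no members. With members at 0.865% of all genes, lists of these sizes would hold few or none in any case. Nothing is read from their absence, nor from a gene being the only member on its list. None of the 47 interferon-stimulated genes was among the 104. LPS was at least 25% above vehicle in both genotypes at 47 of 47, and 47 of 47 were higher in Dicer KO on average. None of the 31 LPS-induced cytokines and chemokines that passed the filter, 38 TLR4 and NF-kappaB signalling genes, 24 hypoxia targets, 21 glycolysis genes, 60 cell cycle genes or 51 cytosolic ribosomal protein genes belonged to the set. Of the 37 tested targets of other macrophage microRNAs, 22 were higher and 7 lower in Dicer KO, and Klf4 and Abca1 were members.

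Sites for microRNAs were counted in annotated 3′ untranslated regions (3′UTRs) of GENCODE, from the transcript with the longest coding sequence. Mature microRNAs were not measured in these libraries. Abca1 carries 3 sites for miR-33-5p, a microRNA encoded inside Srebf2 and known for lowering ABCA1, in 1 stretch of 30 bases. The sequences, from RefSeq on GRCm38.p6 for the microRNAs, are shown for that reason, with the seed (bases 2 to 8) and the matching sites in capitals; the first 2 sites share 2 bases.
mmu-miR-33-5p, chr15:82198127-82198147, plus strand: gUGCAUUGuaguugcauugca
Abca1, bases 131 to 160 of 3156 in its 3′UTR: tattCAATGCAATGCActtCAATGCAacga
Thbs1, bases 27 to 56 of 2104 in its 3′UTR: ctggCAATGCAccttctaaaaacaagggct
mmu-let-7a-5p, chr13:48538239-48538260, minus strand: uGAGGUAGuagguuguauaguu
Srebf2, the host of miR-33, had LPS ratios of 1.22 in Dicer KO and 2.91 in control. Sites for miR-33-5p lay in 10 of 40 protein-coding genes of the first direction (25%), in 4 of 48 of the second (8.33%) and in 6.76% of all. The 10 were Abca1, Thbs1, Lyz2, Fbxw7, Atp2b4, Kctd12, Igsf10, Ednrb, Gng4 and Ulbp1. Per kilobase there were 0.159, 0.049 and 0.05 sites. Sites for let-7, whose mature sequence is given above, lay in 4 of 40 (10%), 12 of 48 (25%) and 9.49%, or 0.073, 0.147 and 0.074 per kilobase. The 4 were Pdgfb, Zfp583, Igsf10 and Zc3hav1l. Thbs1, the member on the let-7 target list, held no such site in this 3′UTR. The 12 included Scd1, Wipi1, Aen, Slc35c1 and Fam210a, of which Scd1, Wipi1, Slc35c1 and Fam210a were lower in Dicer KO. For the other 13 microRNAs, the shares ran from 0% to 27.5% in the first direction and from 0% to 31.25% in the second, against 6.28% to 22.8% in all genes. In the first direction, the second and all genes, miR-92a-3p had 15%, 8.33% and 6.88%, and miR-30a-5p 25%, 18.75% and 14.9%. For miR-17-5p the shares were 22.5%, 6.25% and 13.7%, and for miR-21a-5p 0%, 0% and 6.85%. Per kilobase, miR-92a-3p had 0.085, 0.061 and 0.051 sites, miR-30a-5p 0.122, 0.172 and 0.121, and miR-17-5p 0.122, 0.037 and 0.109. Shares above that of all genes were not particular to miR-33-5p and let-7, but a share rises with 3′UTR length, and members had longer 3′UTRs. Median 3′UTR length was 1629 and 1567 bases, against 981 in all genes.

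Other features of the sets are given beside the same values over all genes. Of the 46 genes, 40 were protein-coding, and of the 58, 50, against 90.2% of all genes. The median level over the 12 libraries was 20 and 10.6 CPM, against 23.8 CPM. Median exonic length of protein-coding members was 6117 and 4378 bases, against 4548. Median GC content of the transcript was 48.2% and 52%, against 50.2%. RefSeq promoter windows were found for 37 of the 46 and 33 of the 58. Among them the interferon response element (GAAA, 2 free bases, GAAA), searched on both strands like the rest, was found in 8.11% and 6.06%, against 3.45% of all windows. The E-box CACGTG was found in 8.11% and 9.09%, against 10.5%, and the AP-1 motif TGANTCA in 2.7% and 0%, against 4.81%. The kappaB motif (GGGA, 1 free base, TTTCC) was found in 2.7% and 0%, against 0.43%. The CRE TGACGTCA was found in 0% and 3.03%, against 3.33%, and TATAAA in 2.7% and 3.03%, against 6.64%. The hypoxia response core ACGTG, which also lies within the E-box, was found in 18.9% and 33.3%, against 26.4%. Of 2 further motifs chosen after the data had been seen, the CCAAT box was found in 32.4% and 54.5%, against 38.7%, and the sterol response element TCACNCCAC in 2.7% and 0%, against 1.09%.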

How the data were processed

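The 12 libraries held poly(A) RNA of mouse macrophages in 4 groups of 3, made with the TruSeq Stranded mRNA kit (per the labels' extract protocol). Whole-number counts per gene were what the authors deposited, 1 file per library. STAR 2.5 and DESeq2 are named, with mm10 and GRCm38.p5, per the submitters' processing notes. Which program counted the reads, with which strand option and gene models, is not given here. Libraries held 16172600 to 18886948 gene counts. Reads without a feature were 45.8% to 46.8% of each file, and those rows stayed out of totals and tests. Of 46078 gene identifiers 45229 matched GENCODE M21, and the rest held 0.141% of counts.

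Genes were scaled by TMM and tested with edgeR 4.0.16 (R 4.3.3): quasi-likelihood fit with robust dispersion after filterByExpr, 1 mean per group over all 12 libraries, Benjamini-Hochberg adjustment over 13837 genes, called at an adjusted p under 0.05. The biological coefficient of variation was 6.3%. With equal groups and equal spread, the genotype effect averaged over LPS and vehicle is uncorrelated in sampling error with both LPS responses of the rule. Spread was not equal at every gene: in control, Thbs1 had an SD of 1.45 CPM with LPS and 267.1 CPM with vehicle. At such genes a library that stands apart can move membership and the averaged difference together. Standard errors cover the spread of 3 libraries per group. The members and gene lists were chosen with earlier results of these data known.

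The text names, in each direction, the 10 members with the largest ratio of LPS ratios between genotypes among those reaching a group mean of 5 CPM and without a predicted or clone name, up to 4 members of each gene list, the 6 with the highest mean CPM, up to 5 higher and 5 lower with the smallest adjusted p, and 2 genes inside and 2 outside the limits, with Dicer1, Lyz2 and Apoe. Genes named outside this rule, such as P2ry12, Srebf2, Qpctl and the list genes set beside a member, were chosen after their values were seen. Apoe, deleted in all mice, was lower in Dicer KO (log2 -1.74). Alternatives were DESeq2 1.42.0, other scalings, other limits, pseudocounts and filters, a replicate block and leaving out libraries. Promoter and microRNA sequences are from RefSeq on GRCm38.p6, and 3′UTR sequences from GENCODE M21. Some genes that the rule names are not reported here.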

Additional observations from a re-analysis of the deposited data

How the results depend on the processing

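Alternatives were applied to the membership counts, the averaged genotype effect and its named genes. Library totals named 29 genes as higher with LPS in Dicer KO and lower in control (8 of them among the 46) and 84 in the other direction (8 among the 58). They moved the median averaged log2 difference of all genes to -0.26, called 2101 genes higher and 7553 lower in Dicer KO, and put 21.8% of calls on the higher side, against 51.3% with TMM. Of the members, 5 of the 46 were then called lower and 3 of the 58 higher, and the sign turned for Ddx21 (-0.102), Klf4 (-0.0218), Cd44 (-0.204), Gm42418 (-0.18) and CT010467.1 (-0.12). The construction of the scaling accounts for the common shift, and the cause of single turns was not tested. Limits of 1.5 and 0.67 left 15 and 5 genes, and a pseudocount of 2 CPM left 36 of the 58. Without both libraries that stood apart, 5 of the 46 and 40 of the 58 were called lower. Leaving out 1 library, or 1 replicate number of all groups, gave 42 to 59 and 50 to 87 members. Leaving out 1 library gave 33 to 35 and 3 to 5 called higher and lower of the 46, and 5 to 8 and 36 to 39 of the 58. Gm42418 ranged from -0.00756 (without Dicer KO vehicle replicate 3) to 0.137. DESeq2 and its size factors turned no direction of a named gene and ended no call. Replicate numbers did not pair the libraries: 4 of 18 same-number correlations passed 0.1 (range -0.23 to 0.18), and 4 of 12 libraries correlated best with their own number. The replicate block called 8171 genes and changed no call of 48 named genes. Depth limits members under 5 CPM in every group, 8 of the 46 and 9 of the 58.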
